A study of Mus musculus with 12 samples.

Results

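The TNF superfamily module comprised the ligands, the receptors and the TRAF adaptors of the tumour necrosis factor family, read here in a mouse adipocyte precursor line made to overexpress 1 of the ligands, LIGHT (Tnfsf14). Members were taken by symbol, as every gene beginning with Tnfsf, Tnfrsf or Traf followed by a digit, plus Ltbr, Lta, Ltb, Tnf, Fas, Fasl, Cd40, Ngfr, Eda2r, Tradd, Ripk1, Birc2 and Birc3. The rule found 48 genes among the 18255 listed in at least 1 library. It works on symbols alone, but it was set with earlier results of these data known. They were 12 ligands, 2 receptors of LIGHT, 6 other receptors with a death domain, 10 other receptors without one, 4 decoy or regulatory receptors, 7 TRAF adaptors, 3 TRAF-interacting proteins and 4 downstream adaptors, kinases or ubiquitin ligases. Of the 48 members, 32 passed the filter on low counts and were tested. Fasl was listed in no library.

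RNA was sequenced from 3T3-L1 cells, a fibroblast-like line of mouse adipose precursors, in 4 groups of 3 libraries. The groups were LIGHT (tnfsf14) overexpression cells differentiated into beige adipocytes, control cells (3T3-L1-NC) differentiated the same way, undifferentiated LIGHT cells and undifferentiated control cells. All cells grew in high-glucose DMEM with fetal bovine serum. The differentiated groups first received insulin, dexamethasone, IBMX, indomethacin, rosiglitazone and tri-iodothyronine together, and afterwards insulin, rosiglitazone and tri-iodothyronine alone. The promoter that drives LIGHT, the number of clones in each line and the day of harvest were not given in the sources used here. Nor do the labels say whether the 3 libraries of a group stem from 3 cultures, so each p-value measures the spread between these libraries, which may be technical.

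TNF family ligands are mostly trimeric membrane proteins, some of them shed, that cluster their receptors. Receptors with a death domain recruit Tradd, Fadd and Ripk1 and can start either inflammatory signalling or cell death, while the others bind TRAF proteins directly. Traf2, Traf3 and the ubiquitin ligases Birc2 and Birc3 form a complex that keeps the kinase Map3k14 low; receptors such as Ltbr and Tnfrsf12a take the complex away and thereby open the alternative NF-κB pathway. LIGHT binds Ltbr, a receptor of stromal cells, and Tnfrsf14 (HVEM), found mainly on lymphocytes. In fat cells, TNF itself is known as an inhibitor of adipogenesis and of insulin action.

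Each library held between 16334079 and 19686675 expected counts, so that 3 counts corresponded to between 0.152 and 0.184 CPM (counts scaled to the size of the library), and the members together took between 0.118% and 0.136% of all counts. The overexpressed gene was read first, as a check of the labels. Tnfsf14 had 148 and 122 counts in LIGHT differentiated 2 and 3 but 0 in the library labelled LIGHT differentiated 1, against 0 and 0 counts in control differentiated 2 and 3 and 113 in the library labelled control differentiated 1. Before differentiation it had 38, 53 and 58 counts in LIGHT cells and 0, 1 and 0 counts in control cells. Tnfsf14 in the libraries labelled LIGHT differentiated 1 and control differentiated 1 thus went against their labels. The other 31 members tested were compared as well, without a like count over all genes. The library labelled control differentiated 1 lay nearer the mean of LIGHT differentiated 2 and 3 in 24 of the 31. The library labelled LIGHT differentiated 1 lay nearer the mean of control differentiated 2 and 3 in 25. The counts of members called are therefore given over the 12 libraries as labelled and over the 10 that remain without these 2. Values of single genes come from 1 fit or from both, and FPKM means from the 12 libraries as labelled. In the fit of 10 libraries 33 members were tested, Tnfrsf4 being added. The 8 adipocyte markers summed to 15611 to 21226 CPM in libraries labelled LIGHT differentiated, 15819 to 21327 CPM in libraries labelled control differentiated, 187 to 225 CPM in LIGHT undifferentiated, 206 to 242 CPM in control undifferentiated. The 8 markers of preadipocytes and fibroblasts summed to 14629 to 18859 CPM in libraries labelled LIGHT differentiated, 13913 to 21359 CPM in libraries labelled control differentiated, 19252 to 20970.2 CPM in LIGHT undifferentiated, 10854 to 12815 CPM in control undifferentiated. Most of that sum was Col1a1, Col1a2 and Col3a1. Ly6a (25.7 to 42.8 against 263 to 315 CPM), Thy1 and Dlk1 were lower in every differentiated library than in any undifferentiated one. Col3a1 was higher, and Col1a1, Col1a2, Pdgfra and Pdgfrb overlapped between the stages. In bulk RNA, fewer cells of a type and less RNA per cell cannot be told apart.

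On the length-scaled FPKM scale, which permits levels to be set side by side between genes, the module was dominated by a few receptors. Tnfrsf12a (Fn14), the receptor of the ligand TWEAK, was the most abundant member in all 4 groups. Its mean ± SD (n = 3 each) was 181 ± 17.6 FPKM in libraries labelled LIGHT differentiated, 177 ± 15.6 in those labelled control differentiated, 116 ± 3.45 in undifferentiated LIGHT cells and 276 ± 6.36 in undifferentiated control cells. Tnfrsf1a, the widely expressed TNF receptor with a death domain, came second, at 139 ± 11.0 FPKM in libraries labelled LIGHT differentiated, 130.2 ± 10.8 in those labelled control differentiated, 107 ± 4.95 in undifferentiated LIGHT cells and 90.6 ± 2.25 in undifferentiated control cells. Together they held between 36.3% and 50.5% of the members' summed FPKM in a library. Ltbr came next in 3 of the groups, and after Traf7 in undifferentiated control cells, at 79.0 ± 15.4 FPKM in libraries labelled LIGHT differentiated, 65.4 ± 12.4 in those labelled control differentiated, 70.1 ± 2.90 in undifferentiated LIGHT cells and 60.5 ± 1.24 in undifferentiated control cells. In libraries labelled control differentiated, Ltbr stood above Traf4, at 56.3 ± 1.22 FPKM, by less than its own SD. In undifferentiated control cells Traf7, at 65.2 ± 3.03 FPKM, lay above Ltbr in all 3 libraries. Tnfrsf14, the other LIGHT receptor, was far lower, at 0.960 ± 0.269 FPKM in libraries labelled LIGHT differentiated, 1.27 ± 0.340 in those labelled control differentiated, 1.16 ± 0.320 in undifferentiated LIGHT cells and 0.400 ± 0.417 in undifferentiated control cells. Among the ligands, Tnfsf12 (TWEAK) was the most abundant in each group, between 18.6 and 23.6 FPKM on average. Tnfsf14 averaged 1.62 ± 0.277 FPKM in undifferentiated LIGHT cells. It had 4.57 and 4.31 FPKM in LIGHT differentiated 2 and 3, 0 in the library labelled LIGHT differentiated 1 and 4.01 in that labelled control differentiated 1.

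**Figure D1:**
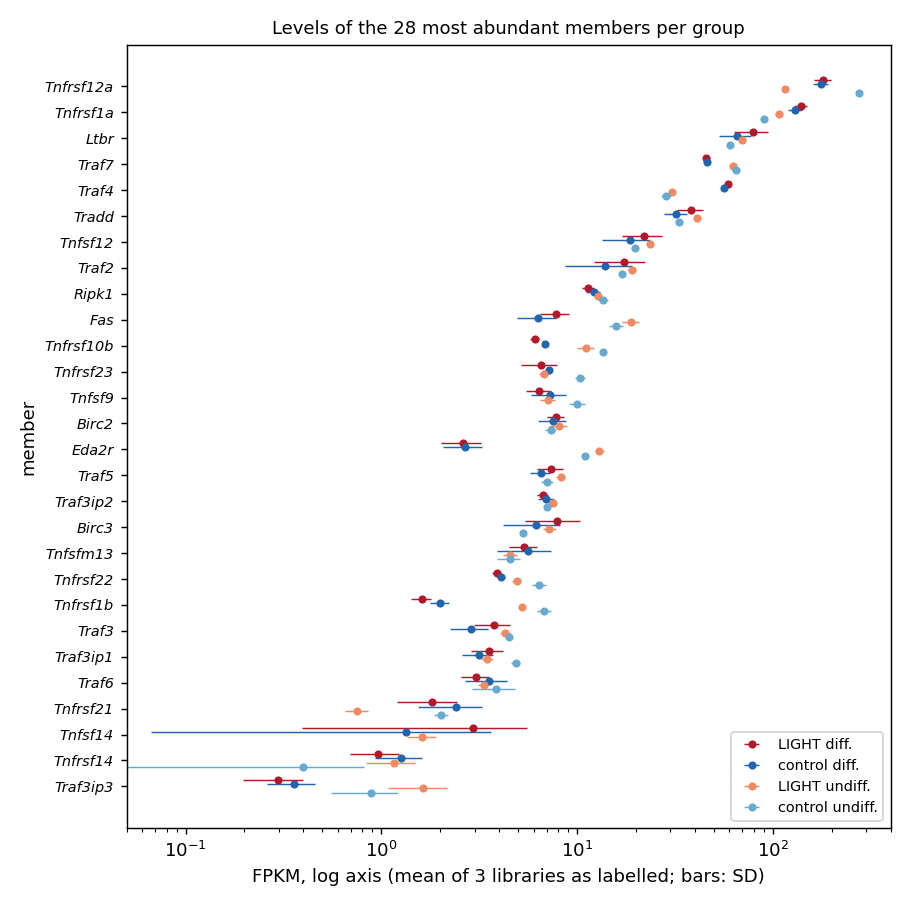
Level of the 28 most abundant members in each group, as FPKM on a log axis. Points are means of the 3 libraries as labelled and bars their SD, shortened on the low side where the SD nears or exceeds the mean. A mean too low for the axis is not drawn, as for Tnfsf14 in undifferentiated control cells (0.01 FPKM). Tnfrsf12a and Tnfrsf1a lie at the top in every group, and Eda2r, Tnfrsf1b and Fas are lower in both differentiated groups than in both undifferentiated ones.

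LIGHT cells were first set against control cells after differentiation, the stage at which the 2 libraries in doubt lie. Over the 12 libraries as labelled, edgeR called 0 of the 32 members at an adjusted p under 0.05, beside 0% of all genes tested in the upward and 0% in the downward direction; 5 members and 523 genes had an unadjusted p under 0.05, and DESeq2 called 0 members and 1 gene. Without the 2 libraries, 12 of 33 members were called, 8 higher and 4 lower in LIGHT cells, beside 31.0% of all genes tested (14.6% higher, 16.4% lower). Tnfsf14 is 1 of the 12, and its call carries no weight, because its values chose the libraries left out. Without it 11 of 32 were called, 7 higher and 4 lower. The members' median log2 fold change was -0.027, beside -0.011 over all genes. With libraries scaled by their totals alone the split was 11 higher and 3 lower, and over all genes 2864 higher and 1477 lower, against 1922 higher and 2157 lower with TMM. Over the same 10 libraries 5 of 8 adipocyte markers were called, all lower in LIGHT cells (median of the list -0.34), and 3 of 3 epithelial markers tested were called lower (median -1.91). Of the 8 markers of preadipocytes and fibroblasts 6 were called, 4 higher and 2 lower (median 0.22). The 8 summed to 18859 and 18188 CPM in LIGHT differentiated 2 and 3, against 13913 and 14446 CPM in control differentiated 2 and 3, and before differentiation the sum was higher in each LIGHT library than in any control library. Most of the sum was Col1a1, Col1a2 and Col3a1. These, Pdgfra and Dlk1 were higher in each undifferentiated LIGHT library than in any undifferentiated control library. Thy1 was lower there (228 to 233 against 260 to 276 CPM), and Pdgfrb and Ly6a overlapped. The part of these lists in the members' differences was not tested. The 8 members that rose were Tnfsf14, its receptor Ltbr, the ligand Tnfsf12, the death receptor Fas, the adaptors Traf2, Traf3 and Tradd, and the ubiquitin ligase Birc3. The 4 that fell were Tnfrsf12a, Tnfrsf21, Tnfrsf23 and Traf6.

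Before differentiation, over all 12 libraries, 10 of 32 members were called, 3 higher and 7 lower in LIGHT cells, beside 26.5% of all genes tested (12.3% higher, 14.2% lower). Higher were Tnfrsf14, Tnfrsf1a and Tradd, and lower were Tnfrsf12a, Tnfrsf21, the decoy receptors Tnfrsf22 and Tnfrsf23, Tnfrsf10b, Tnfrsf1b and Traf3ip1. In the fit of 10 libraries, where the undifferentiated libraries are the same but the estimate of spread is not, 20 of 33 were called, 12 higher and 8 lower, beside 44.4% of all genes tested (22.3% higher, 22.1% lower). It kept those 10 and added Tnfsf14, Ltbr, Tnfsf12, Fas, Eda2r, Traf2, Traf5, Traf3ip3 and Birc3 as higher and Tnfsf9 as lower. The members' median log2 fold change in that fit was 0.042, beside -0.00038 over all genes. The count over 12 libraries depended on single libraries: it was 4 without control undifferentiated 1, 5 without control undifferentiated 2, 6 without LIGHT undifferentiated 1 and 5 without either LIGHT undifferentiated 2 or 3. With the 10 libraries and Tnfsf14 left aside, 9 members were called at both stages, all 9 in the same direction. They were 81.8% of the 11 called after differentiation and 47.4% of the 19 called before it. Over all genes, 2282 were called at both stages, 55.9% of those called after and 39.1% of those called before differentiation, and 66.9% of them had the same direction. The 2 comparisons share no library. The 10 leukocyte markers listed, of 15 sought, summed to 7.97 to 9.10 CPM in libraries labelled LIGHT differentiated, 8.15 to 8.37 CPM in libraries labelled control differentiated, 12.9 to 14.1 CPM in LIGHT undifferentiated, 19.3 to 20.2 CPM in control undifferentiated, most of it Cd14. Itgam, Laptm5, Cd4 and Cd8a were each at or under 0.107 CPM in every library. Of the rest, Lyz2 averaged 0.461 CPM in undifferentiated LIGHT and 2.09 CPM in undifferentiated control cells, and Cd68 0.401 and 1.26 CPM. Csf1r averaged 0.760 and 0.957 CPM, and Ptprc went the other way, at 0.464 and 0.0579 CPM. Cd79a reached at most 0.244 CPM in a library. The part of the list in these results was not tested.

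**Figure D2:**
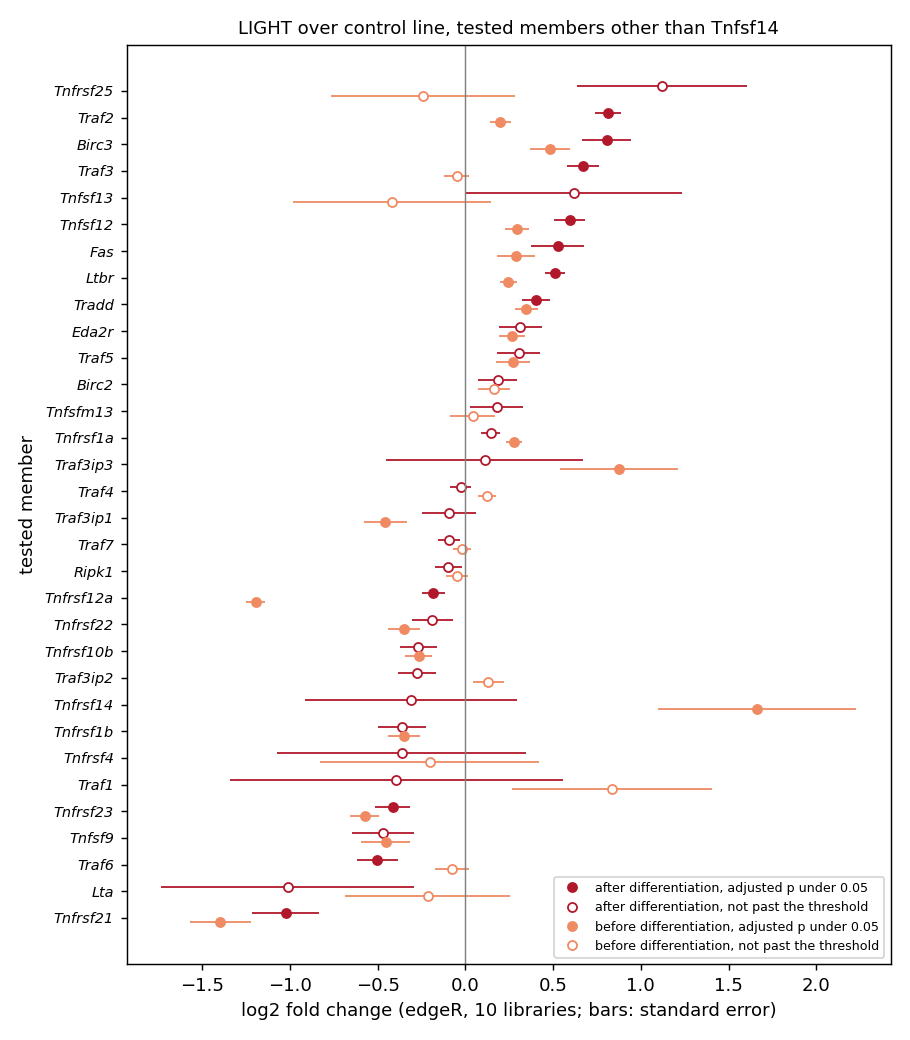
Log2 fold change of LIGHT over control cells for each tested member other than Tnfsf14, after differentiation (red) and before it (orange), from the edgeR fit of 10 libraries; bars are standard errors and filled points have an adjusted p under 0.05. Traf2, Birc3 and Traf3 are the highest filled points after differentiation, and Tnfrsf12a shows a drop before differentiation that is far smaller after it.

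Of the ligands, LIGHT itself followed the labels in 10 of the 12 libraries. Tnfsf14 stood at 7.81 and 7.43 CPM in LIGHT differentiated 2 and 3 (0 in the library labelled 1), against 0 and 0 CPM in control differentiated 2 and 3 (7.03 in the library labelled 1). Before differentiation it had 2.24, 2.78 and 3.11 CPM in undifferentiated LIGHT cells, against 0, 0.0562 and 0 CPM in undifferentiated control cells. Summed over a group, undifferentiated LIGHT cells held 149 counts and control cells 1, a depth-scaled ratio of 142 (95% counting interval 25.0 to 5626; it covers counting error only). LIGHT differentiated 2 and 3 held 270 counts and control differentiated 2 and 3 none, at least 93.8-fold higher when 3 counts over the pair stand for 0. LIGHT differentiated 2 and 3 were also 2.71 times above the undifferentiated LIGHT cells (2.21 to 3.33). Because Tnfsf14 chose which libraries to doubt, its values without them are a description and carry no test. Over the 12 libraries as labelled its log2 fold changes, 1.14 after and 6.69 before differentiation, stayed short of the threshold (adjusted p = 0.913 and 0.0687).

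Ltbr, the stromal receptor of LIGHT and of the lymphotoxins, was higher in LIGHT cells at both stages over the 10 libraries. After differentiation Ltbr had 171 and 174 CPM in LIGHT differentiated 2 and 3 (126 in the library labelled 1), against 117 and 123 CPM in control differentiated 2 and 3 (159 in the library labelled 1). LIGHT differentiated 2 and 3 did not overlap the 2 controls with the same numbers, and each library in doubt sat with the other line. For Ltbr the log2 fold change of LIGHT over control after differentiation over 10 libraries was 0.51 ± 0.0573 SE (adjusted p = 1.71e-06), and over 12 libraries it was 0.24 (adjusted p = 0.913). Before differentiation Ltbr had 131, 131 and 139 CPM in undifferentiated LIGHT cells, against 112, 111 and 117 CPM in undifferentiated control cells. The 2 groups did not overlap. For Ltbr the log2 fold change of LIGHT over control before differentiation over 10 libraries was 0.25 ± 0.0472 SE (adjusted p = 0.000315), and over 12 libraries it was 0.23 (adjusted p = 0.191). Tnfrsf14 was close to the limit of detection throughout. It had 0.827, 1.36 and 0.913 CPM in undifferentiated LIGHT cells, against 0.115, 0.169 and 0.700 CPM in undifferentiated control cells, and the groups did not overlap. That difference was called in both fits. For Tnfrsf14 the log2 fold change of LIGHT over control before differentiation over 10 libraries was 1.66 ± 0.563 SE (adjusted p = 0.022), but it rested on between 2 and 26 counts a library and was lost without any 1 of control undifferentiated 1 and 2 and LIGHT undifferentiated 2 (adjusted p from 0.0891 to 0.0967). In the fit of 12 libraries it was lost without any 1 of control undifferentiated 1 and 2, LIGHT undifferentiated 1, 2 and 3, control differentiated 2 and 3 and LIGHT differentiated 2 and 3 (adjusted p from 0.0527 to 0.161). After differentiation Tnfrsf14 had 0.581 and 1.10 CPM in LIGHT differentiated 2 and 3 (0.873 in the library labelled 1), against 0.909 and 1.13 CPM in control differentiated 2 and 3 (1.55 in the library labelled 1), and the groups overlapped. For Tnfrsf14 the log2 fold change of LIGHT over control after differentiation over 10 libraries was -0.31 ± 0.603 SE (adjusted p = 0.74).

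**Figure D3:**
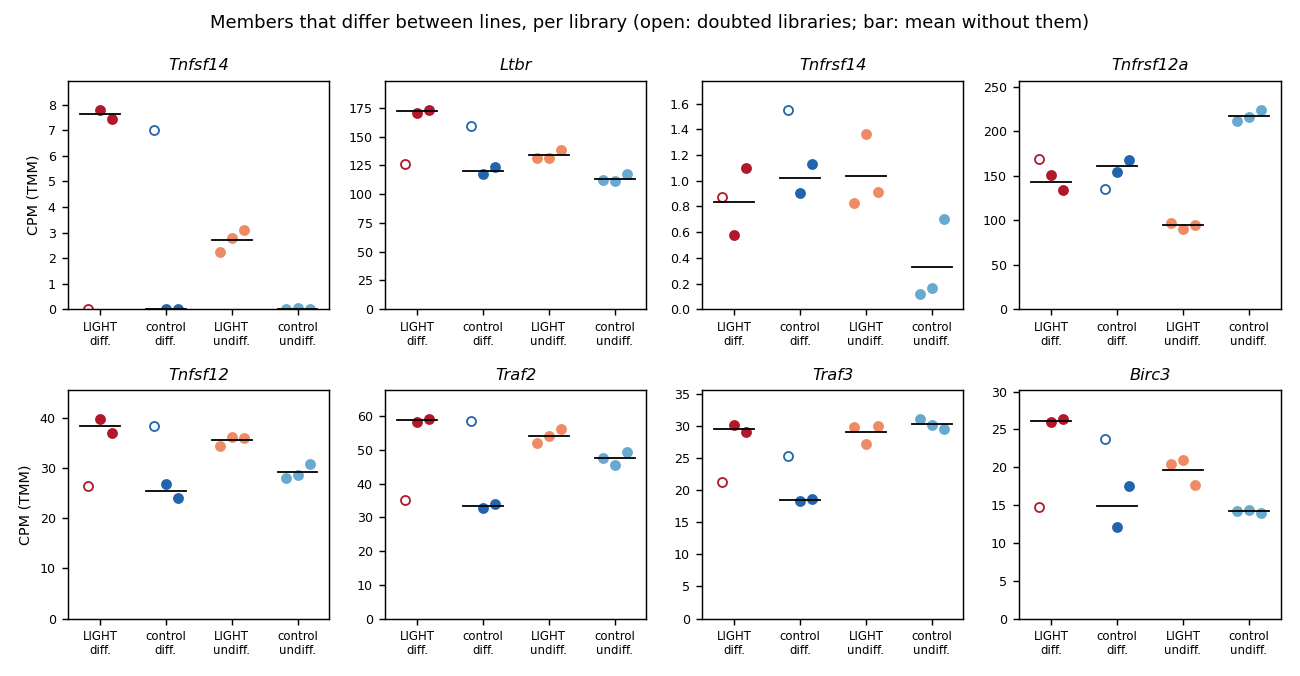
TMM-scaled CPM of 8 members in each of the 12 libraries, by group; open circles are the libraries labelled LIGHT differentiated 1 and control differentiated 1, and bars are group means without them. In Ltbr, Tnfsf12, Traf2, Traf3 and Birc3 each open circle lies toward the other line's filled points, as it does in Tnfsf14.

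TWEAK and its receptor Fn14, a pair known from tissue repair and fibrosis, moved in opposite directions in LIGHT cells over the 10 libraries. Tnfrsf12a had 97.2, 90.5 and 94.8 CPM in undifferentiated LIGHT cells, against 211, 215 and 224 CPM in undifferentiated control cells. The groups lay far apart. For Tnfrsf12a the log2 fold change of LIGHT over control before differentiation over 12 libraries was -1.20 ± 0.0929 SE (adjusted p = 7.26e-06), and over 10 libraries it was -1.19 (adjusted p = 3.31e-12). After differentiation Tnfrsf12a had 151 and 134 CPM in LIGHT differentiated 2 and 3 (169 in the library labelled 1), against 154 and 168 CPM in control differentiated 2 and 3 (135 in the library labelled 1). LIGHT differentiated 2 and 3 were below the 2 controls by little more than their own spread. For Tnfrsf12a the log2 fold change of LIGHT over control after differentiation over 10 libraries was -0.18 ± 0.0661 SE (adjusted p = 0.0412), and the call was lost without any 1 of control undifferentiated 2, control differentiated 3 and LIGHT differentiated 3 (adjusted p from 0.0505 to 0.4). It was also lost when libraries were scaled by their totals alone (-0.10, adjusted p = 0.235). Its ligand Tnfsf12 had 39.8 and 37.1 CPM in LIGHT differentiated 2 and 3 (26.4 in the library labelled 1), against 26.8 and 24.0 CPM in control differentiated 2 and 3 (38.4 in the library labelled 1). For Tnfsf12 the log2 fold change of LIGHT over control after differentiation over 10 libraries was 0.59 ± 0.0862 SE (adjusted p = 3.24e-05). Before differentiation Tnfsf12 had 34.4, 36.2 and 36.0 CPM in undifferentiated LIGHT cells, against 28.1, 28.7 and 30.8 CPM in undifferentiated control cells. For Tnfsf12 the log2 fold change of LIGHT over control before differentiation over 10 libraries was 0.29 ± 0.0697 SE (adjusted p = 0.00197). LIGHT and control groups did not overlap at that stage. Tnfsf12 lies beside Tnfsf13 (APRIL) and overlaps the read-through gene Tnfsfm13, whose transcript joins the 2 ligands, so the split of reads among the 3 genes is uncertain. Their summed CPM was 53.0 and 52.3 in LIGHT differentiated 2 and 3, against 38.3 and 37.0 in control differentiated 2 and 3, and 45.5, 48.7 and 45.1 in undifferentiated LIGHT cells, against 39.2, 39.7 and 41.1 in undifferentiated control cells. The sum was 37.6 in the library labelled LIGHT differentiated 1 and 55.7 in the library labelled control differentiated 1. Among the 10 other libraries it was higher in each LIGHT library than in any control library of its stage.

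Among the TRAF adaptors, Traf2 and Traf3, which sit together in the complex that restrains Map3k14, had the smallest adjusted p after differentiation over 10 libraries. Traf2 had 58.3 and 59.1 CPM in LIGHT differentiated 2 and 3 (35.2 in the library labelled 1), against 32.7 and 33.8 CPM in control differentiated 2 and 3 (58.5 in the library labelled 1). Its LIGHT libraries 2 and 3 were well apart from the controls with the same numbers, and each library in doubt was with the other line. For Traf2 the log2 fold change of LIGHT over control after differentiation over 10 libraries was 0.81 ± 0.0746 SE (adjusted p = 1.35e-07), and over 12 libraries it was 0.29 (adjusted p = 0.913). Before differentiation Traf2 had 52.0, 54.2 and 56.0 CPM in undifferentiated LIGHT cells, against 47.5, 45.5 and 49.4 CPM in undifferentiated control cells, a smaller difference without overlap. For Traf2 the log2 fold change of LIGHT over control before differentiation over 10 libraries was 0.20 ± 0.0593 SE (adjusted p = 0.0101). Traf3 had 30.1 and 29.0 CPM in LIGHT differentiated 2 and 3 (21.2 in the library labelled 1), against 18.4 and 18.6 CPM in control differentiated 2 and 3 (25.3 in the library labelled 1). It was higher in LIGHT differentiated 2 and 3. For Traf3 the log2 fold change of LIGHT over control after differentiation over 10 libraries was 0.67 ± 0.0910 SE (adjusted p = 1.58e-05). Before differentiation Traf3 had 29.8, 27.2 and 30.0 CPM in undifferentiated LIGHT cells, against 31.1, 30.1 and 29.6 CPM in undifferentiated control cells, and the groups overlapped (-0.049, adjusted p = 0.607). Birc3, the ubiquitin ligase of the same complex and a classic NF-κB target, had 25.9 and 26.4 CPM in LIGHT differentiated 2 and 3 (14.8 in the library labelled 1), against 12.2 and 17.5 CPM in control differentiated 2 and 3 (23.7 in the library labelled 1). For Birc3 the log2 fold change of LIGHT over control after differentiation over 10 libraries was 0.81 ± 0.139 SE (adjusted p = 0.000199). Before differentiation Birc3 had 20.4, 20.9 and 17.6 CPM in undifferentiated LIGHT cells, against 14.3, 14.3 and 13.9 CPM in undifferentiated control cells, again without overlap. For Birc3 the log2 fold change of LIGHT over control before differentiation over 10 libraries was 0.48 ± 0.116 SE (adjusted p = 0.00222). Its neighbour and paralogue Birc2 did not pass the test at either stage (0.18 after, adjusted p = 0.23, and 0.16 before, adjusted p = 0.158).

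Traf6, the adaptor of interleukin and Toll-like receptors as well as of TNF receptors, moved the other way, with 15.3 and 13.0 CPM in LIGHT differentiated 2 and 3 (17.5 in the library labelled 1), against 20.6 and 19.4 CPM in control differentiated 2 and 3 (15.9 in the library labelled 1). For Traf6 the log2 fold change of LIGHT over control after differentiation over 10 libraries was -0.50 ± 0.118 SE (adjusted p = 0.00308). The call was lost without LIGHT differentiated 3 (adjusted p = 0.0533). Before differentiation Traf6 had 14.6, 16.1 and 16.1 CPM in undifferentiated LIGHT cells, against 16.7, 16.2 and 16.9 CPM in undifferentiated control cells, values that lay close together without overlap. Traf5, a close relative of Traf2, had 17.3 and 16.4 CPM in LIGHT differentiated 2 and 3 (13.5 in the library labelled 1), against 12.8 and 14.3 CPM in control differentiated 2 and 3 (15.6 in the library labelled 1), short of the threshold (adjusted p = 0.065). Before differentiation Traf5 had 16.5, 18.0 and 16.3 CPM in undifferentiated LIGHT cells, against 13.9, 15.2 and 13.4 CPM in undifferentiated control cells. For Traf5 the log2 fold change of LIGHT over control before differentiation over 10 libraries was 0.27 ± 0.0990 SE (adjusted p = 0.0323), a call lost without any 1 of control undifferentiated 1 and 3 and LIGHT undifferentiated 1 and 2 (adjusted p from 0.0532 to 0.124). Tradd, the death-domain adaptor of Tnfrsf1a, was higher in LIGHT cells at both stages over the 10 libraries. It had 52.4 and 49.7 CPM in LIGHT differentiated 2 and 3 (41.1 in the library labelled 1), against 37.9 and 39.1 CPM in control differentiated 2 and 3 (47.0 in the library labelled 1). For Tradd the log2 fold change of LIGHT over control after differentiation over 10 libraries was 0.40 ± 0.0779 SE (adjusted p = 0.000594). Before differentiation Tradd had 50.1, 51.7 and 47.2 CPM in undifferentiated LIGHT cells, against 37.6, 38.7 and 41.8 CPM in undifferentiated control cells, without overlap. For Tradd the log2 fold change of LIGHT over control before differentiation over 10 libraries was 0.35 ± 0.0635 SE (adjusted p = 0.00019). In the fit of 12 libraries the call of Tradd before differentiation (adjusted p = 0.0288) was lost without any 1 of control undifferentiated 1 and 2 and LIGHT undifferentiated 1 and 2 (adjusted p from 0.0778 to 0.101). Traf3ip1, a ciliary transport protein that binds Traf3, was lower before differentiation, with 10.7, 11.4 and 12.1 CPM in undifferentiated LIGHT cells, against 16.6, 14.9 and 15.7 CPM in undifferentiated control cells. For Traf3ip1 the log2 fold change of LIGHT over control before differentiation over 10 libraries was -0.46 ± 0.123 SE (adjusted p = 0.00526). Over 12 libraries that call (adjusted p = 0.0458) was lost without any 1 of the 6 undifferentiated libraries, control differentiated 3 and LIGHT differentiated 2 (adjusted p from 0.0534 to 0.138). After differentiation Traf3ip1 had 11.8 and 9.81 CPM in LIGHT differentiated 2 and 3 (15.0 in the library labelled 1), against 13.3 and 9.72 CPM in control differentiated 2 and 3 (10.2 in the library labelled 1), with overlap. Ripk1, the kinase shared by the death-domain receptors, did not pass the test in any of the 5 comparisons of either fit.

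The 2 decoy receptors tested and the death receptors DR6 and TRAIL-R were lower in LIGHT cells, mostly before differentiation. Tnfrsf21 (DR6), a death-domain receptor of neurons and lymphocytes, had 4.54 and 5.79 CPM in LIGHT differentiated 2 and 3 (9.22 in the library labelled 1), against 11.7 and 9.18 CPM in control differentiated 2 and 3 (5.35 in the library labelled 1). For Tnfrsf21 the log2 fold change of LIGHT over control after differentiation over 10 libraries was -1.02 ± 0.190 SE (adjusted p = 0.000405). Before differentiation Tnfrsf21 had 2.42, 2.30 and 2.90 CPM in undifferentiated LIGHT cells, against 7.33, 6.35 and 6.59 CPM in undifferentiated control cells, without overlap. For Tnfrsf21 the log2 fold change of LIGHT over control before differentiation over 12 libraries was -1.41 ± 0.306 SE (adjusted p = 0.00553), and over 10 libraries it was -1.40 (adjusted p = 3e-06). Tnfrsf23, in mouse a decoy receptor of TRAIL, had 17.4 and 19.1 CPM in LIGHT differentiated 2 and 3 (27.1 in the library labelled 1), against 23.4 and 24.9 CPM in control differentiated 2 and 3 (23.1 in the library labelled 1). For Tnfrsf23 the log2 fold change of LIGHT over control after differentiation over 10 libraries was -0.41 ± 0.102 SE (adjusted p = 0.00414), a call lost without LIGHT differentiated 2 (adjusted p = 0.0667). Before differentiation Tnfrsf23 had 21.4, 19.6 and 21.8 CPM in undifferentiated LIGHT cells, against 32.7, 31.7 and 29.7 CPM in undifferentiated control cells, without overlap. For Tnfrsf23 the log2 fold change of LIGHT over control before differentiation over 12 libraries was -0.59 ± 0.133 SE (adjusted p = 0.00699). Its neighbour Tnfrsf22, also a TRAIL decoy, had 19.96, 20.4 and 18.1 CPM in undifferentiated LIGHT cells, against 26.4, 25.7 and 22.9 CPM in undifferentiated control cells. For Tnfrsf22 the log2 fold change of LIGHT over control before differentiation over 12 libraries was -0.36 ± 0.0938 SE (adjusted p = 0.014), a call lost in the fit of 12 libraries without any 1 of control undifferentiated 1 and 2 and LIGHT undifferentiated 3 (adjusted p from 0.0534 to 0.0594). In the fit of 10 libraries it stood at -0.35 (adjusted p = 0.00403). The expected counts of this similar pair were not all whole, so reads may be split between them. Their summed CPM before differentiation was 41.3, 40.0 and 39.9 in LIGHT cells and 59.1, 57.5 and 52.6 in control cells. Tnfrsf10b, the mouse TRAIL receptor that signals death, had 35.7, 29.4 and 33.6 CPM in undifferentiated LIGHT cells, against 41.1, 38.7 and 39.8 CPM in undifferentiated control cells. For Tnfrsf10b the log2 fold change of LIGHT over control before differentiation over 12 libraries was -0.28 ± 0.0814 SE (adjusted p = 0.0249), and the groups did not overlap. That call was lost without any 1 of control undifferentiated 1, 2 and 3 and LIGHT undifferentiated 2 and 3 (adjusted p from 0.0526 to 0.117) in the fit of 12 libraries, and in the fit of 10 (adjusted p = 0.0083) without LIGHT undifferentiated 2 (adjusted p = 0.0642).

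The 2 TNF receptors moved apart before differentiation. Tnfrsf1a had 207, 210.3 and 221 CPM in undifferentiated LIGHT cells, against 179.9, 171 and 179 CPM in undifferentiated control cells. For Tnfrsf1a the log2 fold change of LIGHT over control before differentiation over 12 libraries was 0.27 ± 0.0650 SE (adjusted p = 0.00994). Tnfrsf1b, the TNF receptor without a death domain, had 24.0, 25.0 and 23.6 CPM in undifferentiated LIGHT cells, against 33.0, 28.2 and 32.2 CPM in undifferentiated control cells. For Tnfrsf1b the log2 fold change of LIGHT over control before differentiation over 12 libraries was -0.36 ± 0.105 SE (adjusted p = 0.023), and over 10 libraries it was -0.35 (adjusted p = 0.00384). Neither pair of groups overlapped. The call of Tnfrsf1b over 12 libraries was lost without any 1 of control undifferentiated 1 and 3 and LIGHT undifferentiated 1, 2 and 3 (adjusted p from 0.0546 to 0.0898). After differentiation neither passed in the fit of 10 libraries (0.14, adjusted p = 0.057, and -0.36, adjusted p = 0.0522). Fas, the death receptor of Fasl, had 11.1 and 11.8 CPM in LIGHT differentiated 2 and 3 (8.48 in the library labelled 1), against 6.97 and 8.75 CPM in control differentiated 2 and 3 (10.7 in the library labelled 1). For Fas the log2 fold change of LIGHT over control after differentiation over 10 libraries was 0.53 ± 0.151 SE (adjusted p = 0.012), a call lost without control differentiated 2 (adjusted p = 0.154) or without LIGHT differentiated 3 (adjusted p = 0.0708). Before differentiation Fas had 26.4, 25.8 and 21.5 CPM in undifferentiated LIGHT cells, against 19.8, 18.8 and 22.2 CPM in undifferentiated control cells, with overlap. For Fas the log2 fold change of LIGHT over control before differentiation over 10 libraries was 0.29 ± 0.106 SE (adjusted p = 0.033), and the call was lost without any 1 of control undifferentiated 1 and 2 and LIGHT undifferentiated 1 and 2 (adjusted p from 0.0837 to 0.133). Eda2r, the receptor of an ectodysplasin isoform, had 39.0, 41.2 and 41.9 CPM in undifferentiated LIGHT cells, against 35.5, 33.6 and 33.3 CPM in undifferentiated control cells. For Eda2r the log2 fold change of LIGHT over control before differentiation over 10 libraries was 0.27 ± 0.0755 SE (adjusted p = 0.0077), and the groups did not overlap. The ligand Tnfsf9, which binds the costimulatory receptor Tnfrsf9, had 7.80, 7.96 and 6.71 CPM in undifferentiated LIGHT cells, against 11.2, 9.22 and 10.6 CPM in undifferentiated control cells. For Tnfsf9 the log2 fold change of LIGHT over control before differentiation over 10 libraries was -0.45 ± 0.139 SE (adjusted p = 0.0126). Its call was lost without control undifferentiated 1 (adjusted p = 0.0546) or without LIGHT undifferentiated 3 (adjusted p = 0.0609). Traf3ip3, a lymphoid TRAF3-binding protein, had 2.13, 3.98 and 2.58 CPM in undifferentiated LIGHT cells, against 2.31, 1.18 and 1.28 CPM in undifferentiated control cells. For Traf3ip3 the log2 fold change of LIGHT over control before differentiation over 10 libraries was 0.88 ± 0.337 SE (adjusted p = 0.0412). These groups overlapped, and the call was lost without any 1 of control undifferentiated 2 and 3 and LIGHT undifferentiated 2 and 3 (adjusted p from 0.0501 to 0.245).

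Whether the line difference itself differed between stages was tested as an interaction, the log2 fold change of LIGHT over control after differentiation minus that before it. Over 12 libraries it was called for 1 of 32 members, beside 9.34% of all genes tested (5.08% positive, 4.26% negative), and over 10 libraries for 7 of 33, 5 positive and 2 negative, beside 31.0% of all genes tested (14.9% positive, 16.1% negative). Scaling by library totals over 10 libraries gave 5 positive and 0 negative members, and 2771 positive and 1469 negative genes, against 1964 and 2113 with TMM. The member called in both was Tnfrsf12a (1.19 ± 0.130 SE, adjusted p = 0.000307 over 12 libraries; 1.01 ± 0.0857 SE, adjusted p = 6.94e-08 over 10). Its line difference was -0.18 after differentiation and -1.19 before it in the fit of 10 libraries. Traf3 (0.72 ± 0.115 SE, adjusted p = 9.9e-05) and Traf2 (0.61 ± 0.0952 SE, adjusted p = 7.35e-05) had the next largest interactions among the members called over 10 libraries. For Traf3 the line differences were 0.67 after and -0.049 before differentiation, and for Traf2 they were 0.81 and 0.20. Tnfsf12 (0.30 ± 0.111 SE, adjusted p = 0.0464) and Ltbr (0.26 ± 0.0742 SE, adjusted p = 0.0102) were positive as well, and Traf6 (-0.43 ± 0.153 SE, adjusted p = 0.0404) and Traf3ip2 (-0.40 ± 0.139 SE, adjusted p = 0.0327) were negative. Traf3ip2 is an adaptor of the interleukin-17 receptor and stood at 17.8 and 17.2 CPM in LIGHT differentiated 2 and 3 (20.6 in the library labelled 1), against 20.4 and 21.8 CPM in control differentiated 2 and 3 (17.2 in the library labelled 1). Before differentiation Traf3ip2 had 19.96, 18.9 and 20.8 CPM in undifferentiated LIGHT cells, against 17.5, 18.3 and 19.1 CPM in undifferentiated control cells, and the line difference passed the test at neither stage. The calls of 4 of these 7 depended on single libraries. Ltbr was lost without control differentiated 2 (adjusted p = 0.0734), Tnfsf12 without any 1 of control undifferentiated 2 and 3, LIGHT undifferentiated 1, 2 and 3, control differentiated 3 and LIGHT differentiated 2 and 3 (adjusted p from 0.052 to 0.245), Traf6 without any 1 of control undifferentiated 1 and 2, LIGHT undifferentiated 2 and 3, control differentiated 2 and 3 and LIGHT differentiated 3 (adjusted p from 0.0544 to 0.189) and Traf3ip2 without any 1 of control undifferentiated 1 and 2, LIGHT undifferentiated 1, control differentiated 3 and LIGHT differentiated 2 and 3 (adjusted p from 0.0541 to 0.117). The count of 7 was 4 without control undifferentiated 2 and 4 without LIGHT differentiated 3.

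Promoters are shown for 4 of the 7 members with a called interaction: LIGHT's receptor Ltbr, Tnfrsf12a, Traf2 and Traf3. These 4 were picked by hand, and those of Tnfsf12, Traf6 and Traf3ip2 are not shown. RefSeq (GRCm38.p6) gave 250 bases before to 50 bases after the start of each gene, 300 in all; they are printed 5′ to 3′ on the gene's strand. The stretches are chr17:23677400-23677699 on the minus strand for Tnfrsf12a, chr6:125313836-125314135 on the minus strand for Ltbr, chr2:25546891-25547190 on the minus strand for Traf2 and chr12:111166120-111166419 on the plus strand for Traf3. Capitals mark a match to the κB consensus, the site shared by NF-κB dimers.
Tnfrsf12a: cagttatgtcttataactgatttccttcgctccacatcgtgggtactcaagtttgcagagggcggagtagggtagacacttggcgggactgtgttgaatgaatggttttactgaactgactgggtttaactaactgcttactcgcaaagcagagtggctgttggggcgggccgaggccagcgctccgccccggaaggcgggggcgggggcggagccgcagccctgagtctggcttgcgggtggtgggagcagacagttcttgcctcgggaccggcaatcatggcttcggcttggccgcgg
Ltbr: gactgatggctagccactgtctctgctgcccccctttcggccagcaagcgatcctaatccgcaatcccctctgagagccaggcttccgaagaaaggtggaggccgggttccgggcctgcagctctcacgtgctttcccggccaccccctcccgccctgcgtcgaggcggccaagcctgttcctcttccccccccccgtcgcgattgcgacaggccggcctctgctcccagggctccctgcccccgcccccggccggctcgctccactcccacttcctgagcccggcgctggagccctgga
Traf2: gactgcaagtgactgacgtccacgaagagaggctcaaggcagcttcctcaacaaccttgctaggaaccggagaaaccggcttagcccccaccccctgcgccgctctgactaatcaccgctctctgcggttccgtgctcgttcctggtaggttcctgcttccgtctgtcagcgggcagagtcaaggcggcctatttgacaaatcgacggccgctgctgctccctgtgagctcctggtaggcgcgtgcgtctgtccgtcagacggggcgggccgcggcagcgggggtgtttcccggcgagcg
Traf3: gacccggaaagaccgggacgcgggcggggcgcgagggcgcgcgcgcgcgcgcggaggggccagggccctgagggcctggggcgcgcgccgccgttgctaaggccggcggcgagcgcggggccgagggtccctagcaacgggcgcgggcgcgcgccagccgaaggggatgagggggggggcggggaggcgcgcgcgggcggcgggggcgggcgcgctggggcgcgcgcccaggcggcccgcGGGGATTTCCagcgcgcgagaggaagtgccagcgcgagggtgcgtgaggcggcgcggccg

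Of the 48 members, 39 had at least 1 such promoter in the table, 45 promoters in all. The κB consensus, searched on both strands, was present in 3 of the 45, 6.67%, beside 1480 of 32851 mouse promoters of the same length, 4.51%. The members with it were Ltb, Tnfrsf9 and Traf3. In Traf3 the match began 10 bases before the start. Tnfrsf9 had 2 overlapping matches, and they were counted once. The AP-1 motif TGANTCA, on both strands, was present in 6 of 45 member promoters, 13.3%, beside 2565 of 32851, 7.81%. It was found in Tnfsf14, Fas, Tnfrsf9, Tnfsf13 and 2 promoters of Tnfsf13b. Neither motif's letters occurred in the windows printed for Tnfrsf12a, Ltbr and Traf2.

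Differentiation was read within each line. In LIGHT cells 14 of 32 members were called over 12 libraries, 6 higher and 8 lower in differentiated cells, beside 58.6% of all genes tested (29.5% higher, 29.1% lower). Over 10 libraries 17 of 33 were called, 9 higher and 8 lower, beside 64.1% of all genes tested (32.3% higher, 31.9% lower), and 16 of 32 without Tnfsf14. In control cells 16 of 32 were called over 12 libraries, 5 higher and 11 lower, beside 63.9% of all genes tested (32.2% higher, 31.7% lower). Over 10 libraries 18 of 33 were called, 6 higher and 12 lower, beside 70.7% of all genes tested (35.8% higher, 34.9% lower). In all 4 of these counts the share of members called lay under that of all genes. The members' median log2 fold change over 10 libraries was -0.0054 in LIGHT cells and -0.18 in control cells, beside -0.0018 and 0.0096 over all genes. Scaling by library totals alone moved the median of all genes to -0.15 in control cells over 10 libraries. It changed the split of member calls to 8 higher and 11 lower in LIGHT cells and to 4 higher and 16 lower in control cells, and of all genes in control cells to 3779 and 5634, against 4706 and 4586 with TMM. The 2 lines shared 11 called members in either fit. In the fit of 10 libraries these were 64.7% of the LIGHT calls and 61.1% of the control calls, and 10 of the 11 had the same direction. Over all genes the shared calls were 83.9% of the LIGHT calls and 76.1% of the control calls, and 95.9% of them had the same direction. Tnfrsf12a was the exception. The 2 comparisons share no library.

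**Figure D4:**
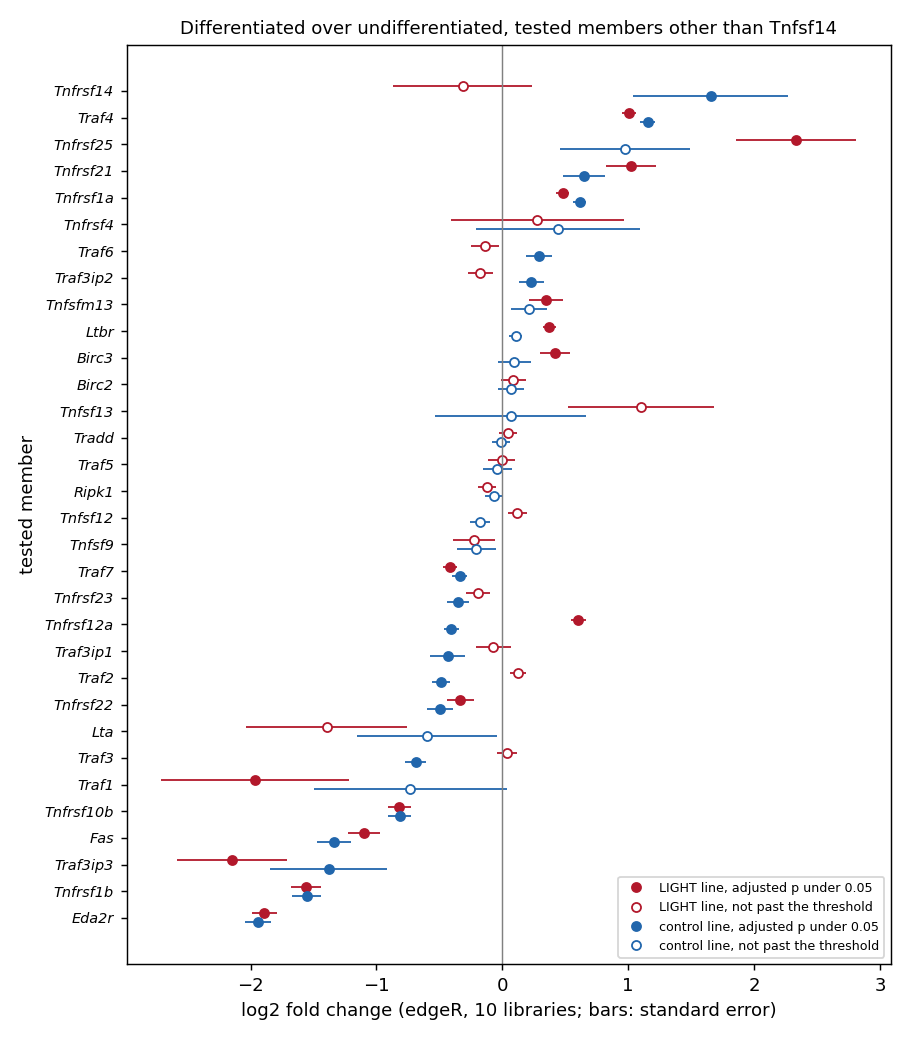
Log2 fold change of differentiated over undifferentiated cells for each tested member other than Tnfsf14, in the LIGHT line (red) and the control line (blue), from the edgeR fit of 10 libraries; bars are standard errors and filled points have an adjusted p under 0.05. Eda2r, Tnfrsf1b, Fas and Tnfrsf10b are lower and Traf4 and Tnfrsf1a higher in both lines, while Tnfrsf12a has opposite signs.

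Eda2r, Tnfrsf1b, Fas and Tnfrsf10b, receptors of ectodysplasin A2, TNF, FasL and TRAIL, fell in both lines on differentiation. Eda2r had 9.98 and 11.9 CPM in LIGHT differentiated 2 and 3 (6.54 in the library labelled 1), against 39.0, 41.2 and 41.9 CPM in undifferentiated LIGHT cells. In the other line Eda2r had 9.33 and 8.21 CPM in control differentiated 2 and 3 (12.5 in the library labelled 1), against 35.5, 33.6 and 33.3 CPM in undifferentiated control cells. It was lower in every differentiated library than in any undifferentiated one (10 libraries: log2 fold change -1.89 in LIGHT cells, adjusted p = 1.72e-12, and -1.94 in control cells, adjusted p = 1.51e-12). Tnfrsf1b had 7.76 and 8.59 CPM in LIGHT differentiated 2 and 3 (7.17 in the library labelled 1), against 24.0, 25.0 and 23.6 CPM in undifferentiated LIGHT cells. In the other line Tnfrsf1b had 9.45 and 11.3 CPM in control differentiated 2 and 3 (8.89 in the library labelled 1), against 33.0, 28.2 and 32.2 CPM in undifferentiated control cells (10 libraries: log2 fold change -1.56 in LIGHT cells, adjusted p = 5.9e-10, and -1.55 in control cells, adjusted p = 2.34e-10). Fas had 8.48 to 11.8 CPM in libraries labelled LIGHT differentiated, against 21.5 to 26.4 in undifferentiated LIGHT cells, and 6.97 to 10.7 in libraries labelled control differentiated, against 18.8 to 22.2 in undifferentiated control cells (10 libraries: log2 fold change -1.10 in LIGHT cells, adjusted p = 2.86e-07, and -1.34 in control cells, adjusted p = 3.13e-08). Tnfrsf10b had 17.6 and 19.6 CPM in LIGHT differentiated 2 and 3 (19.6 in the library labelled 1), against 21.9 and 22.6 CPM in control differentiated 2 and 3 (21.1 in the library labelled 1). Undifferentiated libraries held 29.4 to 35.7 CPM in LIGHT cells and 38.7 to 41.1 CPM in control cells, all above the differentiated values (10 libraries: log2 fold change -0.82 in LIGHT cells, adjusted p = 2.26e-07, and -0.82 in control cells, adjusted p = 1.15e-07). For these 4 receptors the stage groups did not overlap, with or without the 2 libraries in doubt, and each was called in both lines in both fits.

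Tnfrsf1a, by contrast, rose in both lines. It had 289 and 302 CPM in LIGHT differentiated 2 and 3 (272 in the library labelled 1), against 207, 210.3 and 221 CPM in undifferentiated LIGHT cells. In the other line Tnfrsf1a had 267 and 266 CPM in control differentiated 2 and 3 (295 in the library labelled 1), against 179.9, 171 and 179 CPM in undifferentiated control cells, and the groups did not overlap in either line (10 libraries: log2 fold change 0.48 in LIGHT cells, adjusted p = 8.22e-08, and 0.61 in control cells, adjusted p = 1.71e-09). Tnfrsf12a rose in LIGHT cells, where the undifferentiated level was low, and fell in control cells, where it was high (10 libraries: log2 fold change 0.60 in LIGHT cells, adjusted p = 4.39e-08, and -0.41 in control cells, adjusted p = 5.61e-06). All 6 differentiated libraries lay between the 2 undifferentiated groups. Ltbr rose in LIGHT cells in the fit of 10 libraries, and in control cells the change did not pass the test (10 libraries: log2 fold change 0.37 in LIGHT cells, adjusted p = 3.18e-06, and 0.11 in control cells, adjusted p = 0.0802). Tnfrsf14 was higher in differentiated control cells (1.85 over 12 libraries, adjusted p = 0.0112; 1.66 over 10, adjusted p = 0.0223), a call lost over 12 libraries without control undifferentiated 2 (adjusted p = 0.0506) and over 10 libraries without any 1 of control undifferentiated 1 and 2 and control differentiated 3 (adjusted p from 0.0792 to 0.122). Tnfrsf21 rose in LIGHT cells in both fits and in control cells in the fit of 10 libraries (10 libraries: log2 fold change 1.02 in LIGHT cells, adjusted p = 0.000161, and 0.65 in control cells, adjusted p = 0.00187). The control call was lost without control differentiated 2 (adjusted p = 0.0596). Tnfrsf25 (DR3), the receptor of Tnfsf15, had 2.48 and 1.58 CPM in LIGHT differentiated 2 and 3 (1.496 in the library labelled 1), against 0.606 and 1.24 CPM in control differentiated 2 and 3 (3.42 in the library labelled 1), and before differentiation 0.295, 0.419 and 0.483 CPM in undifferentiated LIGHT cells, against 0.577, 0.337 and 0.525 CPM in undifferentiated control cells. It rose in LIGHT cells (10 libraries: log2 fold change 2.33 ± 0.476 SE, adjusted p = 0.000267). The libraries labelled LIGHT differentiated held 24, 47 and 26 counts of Tnfrsf25, against 5, 8 and 9 in undifferentiated LIGHT cells. The low-count filter thus admitted it mainly through differentiated libraries, where it was high, and its calls on differentiation are a description only. In control cells it was called over 12 libraries (adjusted p = 0.0125) but not without the library labelled control differentiated 1 (adjusted p = 0.0947). The decoys Tnfrsf22 and Tnfrsf23 were lower after differentiation in control cells (-0.49, adjusted p = 0.000299, and -0.35, adjusted p = 0.00167, over 10 libraries). Tnfrsf22 had 15.7 and 15.1 CPM in LIGHT differentiated 2 and 3 (17.6 in the library labelled 1), against 18.2 and 16.7 CPM in control differentiated 2 and 3 (16.7 in the library labelled 1) after differentiation. In LIGHT cells it was called in both fits (-0.33, adjusted p = 0.0101, over 10 libraries), though over 10 libraries not without LIGHT differentiated 3 (adjusted p = 0.0646) and over 12 not without any 1 of LIGHT undifferentiated 1 and 2 and LIGHT differentiated 2 and 3 (adjusted p from 0.0749 to 0.0981). The control call of Tnfrsf23 over 12 libraries was lost without any 1 of control undifferentiated 1, the library labelled control differentiated 1 and control differentiated 2 (adjusted p from 0.0534 to 0.0641).

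**Figure D5:**
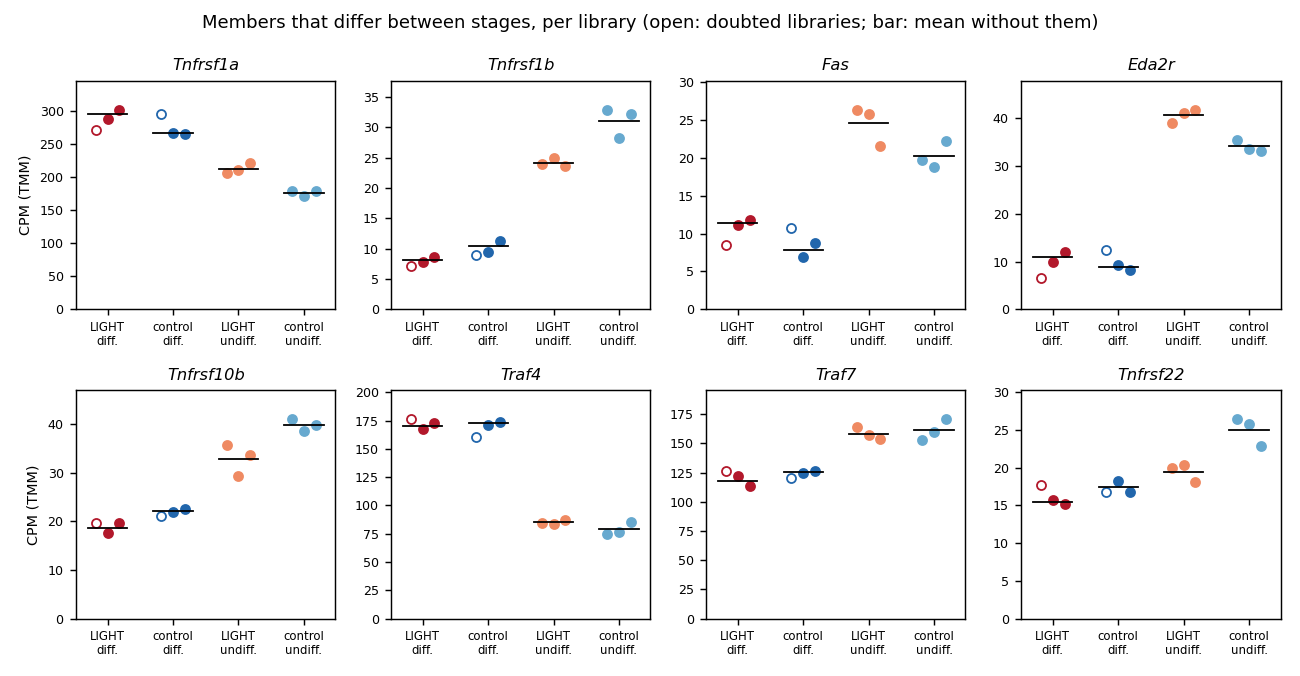
TMM-scaled CPM of 8 members in each of the 12 libraries, by group; open circles are the libraries labelled LIGHT differentiated 1 and control differentiated 1, and bars are group means without them. Tnfrsf1b, Fas, Eda2r, Tnfrsf10b and Traf7 are lower, and Tnfrsf1a and Traf4 higher, in every differentiated library than in any undifferentiated one of either line.

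Of the TRAF adaptors, Traf4 and Traf7 changed in the same direction in both lines. Traf4, known from cell polarity and the actin cytoskeleton, had 168 and 173 CPM in LIGHT differentiated 2 and 3 (176 in the library labelled 1), against 84.6, 84.0 and 86.8 CPM in undifferentiated LIGHT cells. In the other line Traf4 had 171 and 174 CPM in control differentiated 2 and 3 (160.1 in the library labelled 1), against 74.6, 76.9 and 85.0 CPM in undifferentiated control cells (10 libraries: log2 fold change 1.00 in LIGHT cells, adjusted p = 5.66e-12, and 1.15 in control cells, adjusted p = 4.51e-13). Traf7, a ubiquitin ligase of the MAP kinase pathway, had 122 and 113 CPM in LIGHT differentiated 2 and 3 (126 in the library labelled 1), against 164, 157 and 154 CPM in undifferentiated LIGHT cells. In the other line Traf7 had 125 and 126 CPM in control differentiated 2 and 3 (121 in the library labelled 1), against 153, 160.2 and 171 CPM in undifferentiated control cells (10 libraries: log2 fold change -0.42 in LIGHT cells, adjusted p = 3.04e-06, and -0.34 in control cells, adjusted p = 2.83e-05). Neither gene's stage groups overlapped. Traf2 and Traf3 fell in control cells in the fit of 10 libraries and showed no call in LIGHT cells (for Traf2 0.12, adjusted p = 0.103, in LIGHT cells and -0.49, adjusted p = 3.54e-06, in control cells). For Traf3 the log2 fold changes were 0.034 in LIGHT cells (adjusted p = 0.722) and -0.69 in control cells (adjusted p = 4.72e-07), and the control call also held over 12 libraries (-0.54, adjusted p = 0.00468). Birc3 rose in LIGHT cells in the fit of 10 libraries (log2 fold change 0.42 ± 0.123 SE, adjusted p = 0.00578). Traf6 (0.29, adjusted p = 0.0201) and Traf3ip2 (0.23, adjusted p = 0.042) were higher in differentiated control cells in that fit. Both calls were lost when libraries were scaled by their totals alone (adjusted p = 0.270 and 0.510), Traf6 was lost without control undifferentiated 2 (adjusted p = 0.0525) or without control differentiated 2 (adjusted p = 0.136), and Traf3ip2 without any 1 of control undifferentiated 1 and 2, LIGHT undifferentiated 1 and control differentiated 2 and 3 (adjusted p from 0.0517 to 0.256). Traf3ip1 was lower in differentiated control cells (log2 fold change -0.51 ± 0.159 SE, adjusted p = 0.0135, over 12 libraries), a call lost without control differentiated 3 (adjusted p = 0.071) and, over 10 libraries, without control differentiated 3 (adjusted p = 0.209). Traf3ip3 had 0.739 and 0.548 CPM in LIGHT differentiated 2 and 3 (0.374 in the library labelled 1), against 0.485 and 0.702 CPM in control differentiated 2 and 3 (0.871 in the library labelled 1). It was lower than before differentiation in both lines (10 libraries: log2 fold change -2.15 in LIGHT cells, adjusted p = 0.00027, and -1.38 in control cells, adjusted p = 0.0128), and the control call was lost over 12 libraries without any 1 of control undifferentiated 1 and control differentiated 2 and 3 (adjusted p from 0.0512 to 0.11) and over 10 without control undifferentiated 1 (adjusted p = 0.0753) or without control differentiated 2 (adjusted p = 0.0882). Traf1, an NF-κB-induced adaptor, had 0.370 and 0 CPM in LIGHT differentiated 2 and 3 (0.374 in the library labelled 1), against 0.303 and 0.216 CPM in control differentiated 2 and 3 (0.124 in the library labelled 1), and before differentiation 0.650, 0.786 and 0.913 CPM in undifferentiated LIGHT cells, against 0.346, 0.562 and 0.408 CPM in undifferentiated control cells. It was at most 17 counts in a library, and its lower level in differentiated LIGHT cells (log2 fold change -1.96 ± 0.746 SE, adjusted p = 0.0276) was lost without LIGHT undifferentiated 3 (adjusted p = 0.06) or without LIGHT differentiated 3 (adjusted p = 0.25), and over 12 libraries without any 1 of the 6 undifferentiated libraries, control differentiated 2 and 3 and LIGHT differentiated 3 (adjusted p from 0.0519 to 0.109). The low-count filter admitted Traf1 mainly through undifferentiated LIGHT cells (11, 15 and 17 counts), where it was high. That call is therefore a description only.

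The remaining ligands were Tnfsf9, Tnfsf13, Lta and those too low to test, beside the read-through gene Tnfsfm13. Tnfsf9 had 5.91 and 6.89 CPM in LIGHT differentiated 2 and 3 (8.35 in the library labelled 1), against 10.1 and 7.61 CPM in control differentiated 2 and 3 (6.90 in the library labelled 1), and its change on differentiation passed the test in neither line. Tnfsfm13 had 12.4 and 14.3 CPM in LIGHT differentiated 2 and 3 (9.60 in the library labelled 1), against 10.6, 12.1 and 8.91 CPM in undifferentiated LIGHT cells. For Tnfsfm13 the log2 fold change on differentiation of LIGHT cells over 10 libraries was 0.35 ± 0.138 SE (adjusted p = 0.0351), a call lost without any 1 of LIGHT undifferentiated 1 and 3 and LIGHT differentiated 3 (adjusted p from 0.0654 to 0.258) and, with scaling by library totals, at adjusted p = 0.0706. In the other line Tnfsfm13 had 11.1 and 12.4 CPM in control differentiated 2 and 3 (17.2 in the library labelled 1), against 10.9, 10.5 and 9.56 CPM in undifferentiated control cells. Tnfsf13 had 0.739 and 0.853 CPM in LIGHT differentiated 2 and 3 (1.68 in the library labelled 1), against 0.424 and 0.594 CPM in control differentiated 2 and 3 (0.124 in the library labelled 1), and before differentiation 0.532, 0.314 and 0.268 CPM in undifferentiated LIGHT cells, against 0.231, 0.562 and 0.700 CPM in undifferentiated control cells. Its rise in LIGHT cells over 12 libraries (log2 fold change 1.54 ± 0.568 SE, adjusted p = 0.0335) was lost without any 1 of LIGHT undifferentiated 2 and 3 and the library labelled LIGHT differentiated 1 (adjusted p from 0.0978 to 0.147). The low-count filter admitted Tnfsf13 mainly through the libraries labelled LIGHT differentiated (27.0, 13.7 and 13.6 counts), where it was high. That call too is a description only. Tnfsf14 was called in control differentiation over 12 libraries (log2 fold change 6.46 ± 2.58 SE, adjusted p = 0.0431), which rested on the library labelled control differentiated 1. Without that library its log2 fold change was -1.87 (adjusted p = 0.743), and without any single one of the 6 undifferentiated libraries the adjusted p was from 0.0548 to 0.111. Lta, a soluble ligand of the TNF receptors, reached at most 15 counts and passed the test in no comparison. Of the 32 tested members, 5 had fewer than 10 counts in every library of a group. They were Lta in LIGHT differentiated cells, Tnfrsf25 and Tnfsf13 in LIGHT undifferentiated cells, Tnfsf14 in control undifferentiated cells and Traf1 in both differentiated groups. These members passed the filter through their other groups, so their comparisons with such a group are descriptions only. Among the 16 members that were not tested over 12 libraries, the highest count in any library was 12 for Tnfrsf4, 10 for Tnfsf18, 9 for Tnfrsf13c, 6 for Tnfrsf9 and Tnfsf10 and 5 for Ltb. Of these, only Tnfrsf4 was tested over 10 libraries, and it was called in no comparison. Tnfrsf18, Tnfrsf26 and Tnfsf13b reached 4 counts and Tnfrsf19 and Tnfsf15 reached 3, while Tnf, Cd40, Ngfr, Tnfrsf11b and Tnfrsf17 had at most 1 count in any library. At this depth TNF, the founding ligand, was not detectable in any of the 4 groups beyond a single count. Tnfsf18, the ligand of Tnfrsf18, summed to 7 counts in undifferentiated LIGHT cells and 23 in undifferentiated control cells (depth-scaled ratio 0.289, 95% counting interval 0.105 to 0.696), and to 0 and 1 counts in the libraries labelled LIGHT differentiated and control differentiated.

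The genes through which these receptors signal were read from a list of 38, all of them tested, that holds the NF-κB subunits and inhibitors, the IκB kinases, the linear ubiquitin ligase, caspases, necroptosis kinases and shedding proteases. After differentiation, LIGHT against control, edgeR called 0 of 38 over 12 libraries, where 1 had an unadjusted p under 0.05 and DESeq2 also called 0. Over 10 libraries it called 23 of 38 (15 higher, 8 lower), with a median log2 fold change of 0.084; all genes were called in 31.0%. The 4 with the smallest p were Nfkb2 (1.00 ± 0.0748 SE, adjusted p = 9.25e-09), the NF-κB inhibitors Nfkbie (2.13) and Nfkbia (0.85), and Relb (0.92). Nfkb2 and Relb encode the subunits of the alternative NF-κB dimer. Before differentiation 7 of 38 (4 higher, 3 lower) were called over 12 libraries, beside 26.5% of all genes, and 18 of 38 (13 higher, 5 lower) over 10, beside 44.4%, so that 47.4% of the list stood near the share of all genes. Among those with the smallest p over 10 libraries were Bcl3 (0.93), an NF-κB cofactor, Nfkb2 (0.52) and the necroptosis kinase Ripk3 (-0.54). The interaction was called for 3 of 38 (2 positive, 1 negative) over 12 libraries, beside 9.34% of all genes, and for 17 of 38 (10 positive, 7 negative) over 10, beside 31.0%, with Nfkbia (0.75), Nfkbie (1.33), Casp8 (-0.62) and Bid (0.68) first over 10 libraries. On differentiation 23 of 38 (13 higher, 10 lower) changed in LIGHT cells and 24 of 38 (12 higher, 12 lower) in control cells over 12 libraries, beside 58.6% and 63.9% of all genes, and 28 of 38 (15 higher, 13 lower) and 31 of 38 (15 higher, 16 lower) over 10, beside 64.1% and 70.7%. Scaling the 10 libraries by their totals alone changed the splits to 17 higher and 5 lower after differentiation, 13 positive and 3 negative in the interaction, and 11 higher and 20 lower on differentiation of control cells. Tnfaip3 (A20), the ubiquitin-editing brake on TNF receptor signalling, led both lines over 12 libraries, at 1.65 in LIGHT cells and 1.44 in control cells (adjusted p = 2.52e-07 and 6.3e-07). Mlkl (-0.92) and Rnf31 (-0.71) were also among the 4 with the smallest p in LIGHT cells, and in control cells it was followed by Xiap (0.95), Tnip1 (1.42) and Cflar (0.88), the last an inhibitor of Casp8. The 4 epithelial markers listed, of 6 sought, summed to 7.19 to 22.4 CPM in libraries labelled LIGHT differentiated, 3.61 to 21.7 CPM in libraries labelled control differentiated, 0.471 to 1.30 CPM in LIGHT undifferentiated, 0.519 to 0.674 CPM in control undifferentiated, and the 5 endothelial markers to 0.853 to 1.21 CPM in libraries labelled LIGHT differentiated, 0.497 to 1.21 CPM in libraries labelled control differentiated, 1.45 to 2.24 CPM in LIGHT undifferentiated, 2.89 to 2.97 CPM in control undifferentiated; the part of either list in these results was not tested.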

How the data were processed

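RNA sequencing of 12 libraries gave 1 table per library of expected counts and FPKM per gene, made and deposited by the authors and listing only genes above 0, per the file headers. The gene lengths in the same deposited tables were used only to read FPKM. The submitters' processing notes name the genome build mm8; the aligner and counter were not given in the sources used here. Replicates are the numbered libraries of the labels, and p-values cover only the spread between these libraries. Groups were taken from the labels.

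Genes absent from a table were set to 0, expected counts were rounded to integers, and CPM are TMM-scaled. Levels between genes were read from the authors' FPKM, which are per length. Differences were tested with edgeR 4.0.16 (R 4.3.3, limma 3.58.1), a quasi-likelihood fit of all 4 groups after filterByExpr at a minimum count of 10, with Benjamini-Hochberg adjustment over all genes tested and a threshold of 0.05. The same fit was run on 10 libraries, without those labelled control differentiated 1 and LIGHT differentiated 1. The fit of 12 libraries was tested on simulated data before use, for LIGHT against control before differentiation only. The fit of 10 libraries, the interaction, small changes and changes in genes of low counts were not covered. Alternatives were library totals or RLE in place of TMM, DESeq2 1.42.0, no filter, a filter at 1 CPM in 3 libraries, only the groups compared, a replicate block and leaving out each library; library totals, the block and leaving out libraries within the 10-library fit were chosen after seeing the data. The members and marker lists were chosen with earlier results of these data known, so no pattern is independent support. Every member was accounted for; per-library values or ranges were given for Tnfsf14, Ltbr, Tnfrsf14 and members called in any comparison in either fit, and up to 4 genes with the smallest p were named per comparison from a downstream signalling list, of which 1 gene is not reported here. Promoters came from RefSeq (GRCm38), matched by gene number, and no coordinates were carried between builds.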

Additional observations from a re-analysis of the deposited data

Results flagged for a closer look

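For 7 members the difference between LIGHT and control cells itself differed between the stages, by the interaction of line and stage in edgeR's quasi-likelihood fit, given as the log2 fold change after differentiation minus that before it. Tnfrsf12a (Fn14) passed in both fits, at 1.19 over 12 libraries and 1.01 over 10. Over the 10 libraries, the interaction was 0.72 for Traf3, 0.61 for Traf2, 0.3 for Tnfsf12 and 0.26 for Ltbr. It was -0.43 for Traf6 and -0.4 for Traf3ip2. Of these 7, Tnfrsf12a, Traf2 and Traf3 were called in every fit of 10 libraries less 1. Over the 10 libraries these 7 of 33 members stand beside 31.0% of all genes called in the interaction, a larger share.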

How the results depend on the processing

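Leaving out the 2 libraries in doubt changed the number of members called before differentiation to 20, after differentiation to 12 and in the interaction to 7, against 10, 0 and 1 over 12 libraries. Without Tnfsf14, which chose those libraries, the 10-library counts were 19, 11 and 7. For all genes these counts were 5836, 4079 and 4077 over 10 libraries, against 3446, 0 and 1214. Fitting only the undifferentiated groups also gave 20 members. Without the 2 libraries, Tnfsf14 changed sign in control differentiation (-1.88, against 6.46 over 12 libraries) and in the interaction (3.38, against -5.55). The Ltbr interaction, 0.0025 over 12 libraries, was -0.010 with no low-count filter, and the cause was not tested. Leaving out 1 library at a time, the 12-library fit called 0 to 0 members after and 4 to 12 before differentiation, 11 to 15 on differentiation of LIGHT cells, 13 to 18 of control cells and 1 to 2 in the interaction. In the 10-library fit these ranges were 9 to 14, 15 to 20, 14 to 18, 15 to 19 and 4 to 8. Over these fits of 12 less 1, the Ltbr interaction ran from -0.092 to 0.13, and Tnfsf14 from -1.87 to 8.33 in control differentiation and from -7.42 to 2.79 in the interaction. Of the single-gene results over 12 libraries, 53 of 53 kept direction and call under RLE scaling, 52 under library totals (1 lost its call), 45 with no filter (6 lost theirs), and all those with a value under DESeq2 (48) and the stricter filter (51). In the 10-library fit, library totals kept 68 and lost 6. Same-numbered undifferentiated libraries did not deviate together between lines (correlations of -0.0069 to 0.044), so the numbers were not taken to pair them. The correlations were 0.036 to 0.097 between stages and -0.62 to -0.29 after differentiation between lines. Those deviations were taken from group means that hold the 2 libraries in doubt, so these values cannot decide on pairing. With a replicate block the 12-library fit called 15 members in control differentiation, 12 in LIGHT differentiation, 7 before, 0 after and 1 in the interaction, and the 10-library fit 18, 17, 19, 12 and 5. For the block, the fits that left out 1 library and the fit of undifferentiated groups alone, counts over all genes are not given. Whether those changes in count, here and above, are particular to the members was not tested. The 16 members under the low-count filter over 12 libraries were not tested there, and of them only Tnfrsf4 was tested over 10.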
